A study of Mus musculus with 10 samples.

Results

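The retinoic acid receptors, binding proteins and enzymes examined here are 9 genes: Rara, Rarb and Rarg (retinoic acid receptors), Rxra and Rxrb (retinoid X receptors), Crabp1 and Crabp2 (cellular retinoic acid binding proteins), and Cyp26a1 and Cyp26b1 (enzymes that degrade retinoic acid). They were found by gene symbol in the deposited table of TPM (a transcript level scaled by length and depth) and joined by gene identifier to the deposited counts, where they are 9 of 55536 genes. RNA was sequenced from oocytes of female mouse embryos at E16.5, labelled as C57BL/6. Of the 10 libraries, 5 carry the label Taf4b-heterozygous and 5 the label Taf4b-deficient. Taf4b encodes a gonad-enriched subunit of TFIID, the complex that binds core promoters. The parents of every embryo were homozygous for an Oct4-EGFP transgene (Pou5f1 tm2Jae), so that germ cells fluoresce, and carried 1 copy of the Taf4b-deficiency mutation. Heterozygous embryos therefore served as the controls, and no wild-type library was used here. Live, GFP-positive cells were sorted from trypsin-dissociated gonads after dead cells had been stained with propidium iodide. The labels give 3 litter dates. Since they do not state if each library is a different embryo, a p-value here speaks only of the spread from library to library, some of which may be technical.

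Retinoic acid is made from vitamin A by dehydrogenases and acts in the nucleus on a receptor pair, an RAR joined to an RXR, bound to direct repeats of a short half-site near target genes. Without ligand the pair recruits corepressors, and with ligand it recruits coactivators. CRABP proteins carry retinoic acid within the cytoplasm, and CYP26 enzymes oxidise and so remove it. In the fetal mouse ovary retinoic acid is known for its part in inducing Stra8 as germ cells enter meiosis, and in the fetal testis CYP26B1 is known for keeping retinoic acid from germ cells.

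The members lie on 9 chromosomes, all are annotated as protein coding, and their positions are given on GRCm38, the build named in the submitters' processing notes. Rara spans chr11:98927818-98974942 on the plus strand, with 4365 bases of merged exons. Rarb spans chr14:16430839-16819156 and Rarg chr15:102234938-102257517, both on the minus strand. Rxra spans chr2:27676440-27762957 and Rxrb chr17:34031812-34038399, both on the plus strand. Crabp1 (chr9:54764748-54773110) and Crabp2 (chr3:87948666-87953376) are short plus-strand genes of 4 exons each. Cyp26a1 spans chr19:37697798-37701536 on the plus strand and Cyp26b1 chr6:84571414-84593908 on the minus strand.

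Among the members, Rarb and Cyp26a1 are textbook direct targets of retinoic acid receptors, and their promoters are shown because a receptor repeat can be read in them. RefSeq windows on GRCm38.p6, of 250 bases before and 50 after a transcript's start, covered 8 of the 9 members (14 windows). They were searched on both strands for pairs of half-sites in direct repeat (AGGTCA or its variants AGTTCA and GGTTCA and GGGTCA), spaced by 1, 2 or 5 bases. A match lay in 2 members, each with spacing 5 and each ahead of the start site, and such a repeat was found in 0.0974% of 32851 promoter windows of all genes (any of the 3 spacings, 0.588%). The 250 bases before the start of Rarb (chr14:16575477-16575726, minus strand) and of Cyp26a1 (chr19:37697558-37697807, plus strand) are printed 5′ to 3′ on the gene's strand, with the half-sites in capitals.
Rarb promoter: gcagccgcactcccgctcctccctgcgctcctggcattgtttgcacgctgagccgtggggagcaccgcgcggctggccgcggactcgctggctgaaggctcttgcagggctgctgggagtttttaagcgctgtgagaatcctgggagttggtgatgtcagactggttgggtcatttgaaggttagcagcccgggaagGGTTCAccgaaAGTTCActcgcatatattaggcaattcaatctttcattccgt
Cyp26a1 promoter: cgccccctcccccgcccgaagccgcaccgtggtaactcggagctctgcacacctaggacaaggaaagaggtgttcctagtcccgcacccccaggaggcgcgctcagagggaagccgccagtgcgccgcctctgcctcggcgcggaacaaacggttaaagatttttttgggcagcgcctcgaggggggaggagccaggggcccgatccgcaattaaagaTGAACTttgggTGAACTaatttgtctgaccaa
In Rarb the repeat reads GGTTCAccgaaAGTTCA from position -53 to -37, counted with -1 as the base just before the start. In Cyp26a1 it lies at -32 to -16 and reads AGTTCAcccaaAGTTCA on the opposite strand. No match was found in the other windows of the members or in those of Stra8 and Rec8, which says only that these letters are not in those windows.

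Total counts ran from 16707216 to 26983565 per library. Taf4b, the targeted gene, stood at 271, 290, 142, 65.7 and 101 CPM in heterozygous libraries 1 to 5 and at 58.2 to 81.7 CPM in the deficient libraries, so the library labelled heterozygous 4 lay within the deficient range. CPM here are counts scaled to a common library size by TMM (trimmed mean of M-values). The labelled cell type was matched by germ cell markers such as Ddx4 (388 to 875 CPM) and Dazl (1224 to 2734 CPM), while Pou5f1, the gene the transgene is named for, was at 0.173 to 1.16 CPM. The summed markers of other cell types ranged, in heterozygous and then deficient libraries, from 42.2 to 99.2 and 37.6 to 131 CPM for 10 pregranulosa genes. The ranges were 65.0 to 2084 and 107 to 1606 CPM for 8 erythroid genes, and 117 to 225 and 57.0 to 185 CPM for 8 macrophage genes. They were 17.8 to 106 and 16.8 to 74.6 CPM for 7 endothelial genes, 19.6 to 49.7 and 14.8 to 66.8 CPM for 11 genes of ovarian stroma and surface, and 33.2 to 102 and 64.4 to 95.5 CPM for 6 mesonephric genes, of which Pax2 was at 0 in 8 libraries. The authors' deposited fold changes are rebuilt by a covariate of 3 levels that the labels do not give, called the deposited grouping below. Its level 1 holds heterozygous 1 and deficient 1 and 2, its level 2 heterozygous 2 and 3 and deficient 3 and 4, and its level 3 the library labelled heterozygous 4, heterozygous 5 and deficient 5. The libraries of level 3 had the highest Hba-a1 (an alpha-globin gene), 260 to 798 CPM against 24.0 to 102 CPM in the other 7.

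Most of the receptor mRNA in these oocytes came from Rxrb, and most of the RAR mRNA from Rara. By deposited TPM, Rxrb supplied 84.3% to 91.8% of the summed level of the 5 receptors in a library, and Rara supplied 66.8% to 89.7% of the summed level of the 3 RARs. The summed RXR level was 11.0 to 23.7 times the summed RAR level. In order of the median TPM over 10 libraries, the members were Rxrb (27.5, range 21.9 to 43.2), Crabp2 (6.06, 1.48 to 19.0), Crabp1 (2.06, 1.46 to 5.10), Rxra (1.83, 1.00 to 2.80) and Rara (1.34, 0.965 to 2.77). Rarg (0.334, 0.0981 to 0.419), Cyp26a1 (0.152, 0 to 0.593), Cyp26b1 (0.149, 0.0780 to 0.277) and Rarb (0.0626, 0.0272 to 0.272) followed. Only the steps from Rxrb to Crabp2 and from Rara to Rarg separated neighbours whose ranges did not overlap. The other neighbours overlapped, and Crabp1 was above Rxra in 6 of 10 libraries. The RNA is bulk, so fewer cells of a type and less RNA per cell cannot be told apart in any of these levels.

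**Figure D1:**
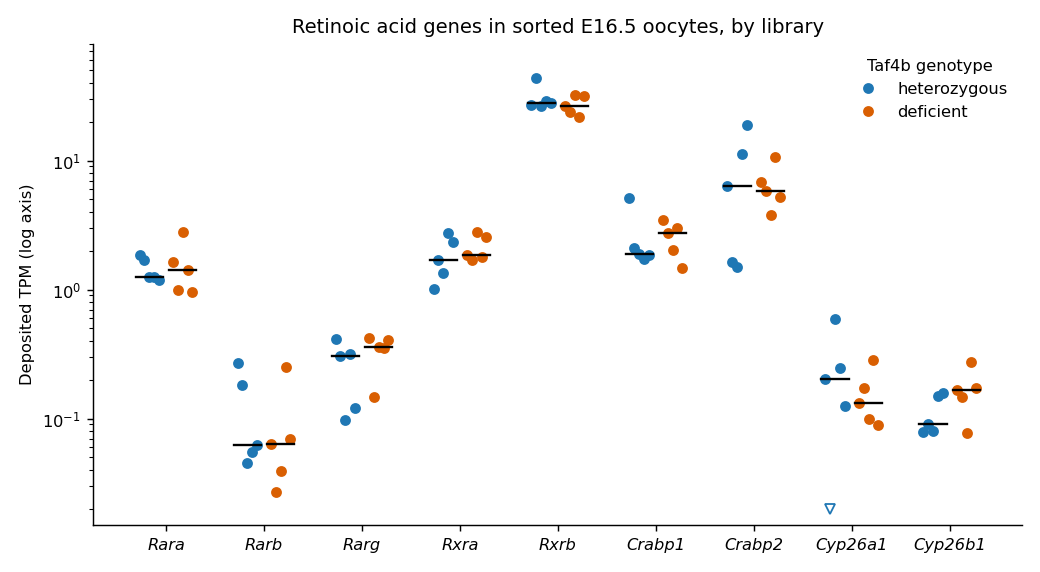
Deposited TPM of the 9 genes on a log axis, with 1 point per library, 5 heterozygous (blue) and 5 deficient (orange), and a black bar at each genotype's median. The open triangle marks a library with 0 reads of Cyp26a1, Rxrb lies above every other member in all 10 libraries, and the genotypes overlap for each gene.

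No member was called between genotypes. The counts were tested with edgeR's quasi-likelihood test over 19244 genes, with Benjamini-Hochberg adjustment over all of them and a threshold of 0.05. Of the 9 members, 7 passed the filter on low counts, and Rarb and Cyp26a1 did not. Among these 7, 0 were called, against 0% of all genes tested, and 0 had an unadjusted p under 0.05, against 16.6% of all genes. DESeq2 on the same counts also called 0 members, against 3.70% of all genes, and edgeR without heterozygous 1 called 0, against 3.07%. Taf4b, the targeted gene, was not called by the main edgeR fit either (log2 fold change -1.22 ± 0.35 SE, adjusted p = 0.155). It was called by edgeR with the deposited grouping (adjusted p = 0.0361) and in the authors' deposited table (adjusted p = 0.000152). The lack of calls in the main fit therefore does not show that the members are unchanged. The CPM ranges of the genotypes overlapped for all 9 members, while they did not overlap for 3.53% of all tested genes. Log2 fold changes, deficient over heterozygous, were positive for 5 and negative for 2 of the tested members, with a median of 0.22 against -0.02 over all tested genes. Per the authors' deposited table, 0 of the 6 members with an adjusted p were called, against 6.55% of its genes with an adjusted p, and 1 of 9 had an unadjusted p under 0.05, against 14.4%.

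**Figure D2:**
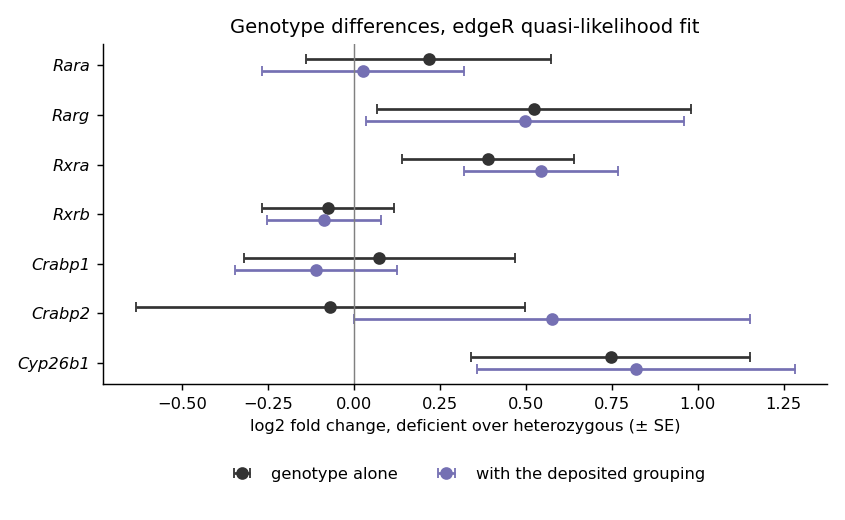
Log2 fold change, deficient over heterozygous, with its standard error for the 7 tested members, from the edgeR fit on genotype alone (dark) and from the fit that adds the deposited grouping (purple). Rxra, Rarg and Cyp26b1 lie above 0 in both fits, and the point of Crabp2 moves from -0.07 to 0.58.

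Rara encodes the RAR that is expressed in most tissues. In heterozygous libraries 1 to 5 it had 7.52, 5.81, 5.06, 3.60 and 3.71 CPM, and in deficient libraries 1 to 5 it had 6.13, 3.80, 11.0, 5.82 and 3.08 CPM. Deficient 3 was the highest library and deficient 5 the lowest, so the deficient range enclosed the heterozygous one. The means were 5.14 ± 1.62 and 5.97 ± 3.11 CPM (SD, n = 5 each), a log2 fold change of 0.22 ± 0.36 (SE), with an edgeR adjusted p of 0.790. Once the deposited grouping was added the log2 fold change was 0.03 ± 0.29 (edgeR adjusted p = 0.972), and without deficient 3 it was -0.12. Within levels 1 to 3 of that grouping the mean log2(CPM + 0.1) of deficient minus heterozygous libraries was -0.63, 0.56 and -0.24. Deficient 3 also had the highest summed level of the pregranulosa markers, 131 CPM against 37.6 to 102 in the other libraries. Next came deficient 5 (102 CPM), the library labelled heterozygous 4 (99.2 CPM) and heterozygous 5 (96.9 CPM). These had the lowest Rara values of all, 3.08 to 3.71 CPM. The part of such cells in the Rara levels was not tested.

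Rarg encodes another RAR and was read at 8 to 34 counts per library. Its CPM were 1.63, 1.02, 0.389, 0.899 and 0.366 in heterozygous libraries 1 to 5, against 1.53, 0.552, 1.40, 1.40 and 1.28 in the deficient ones. Of the deficient libraries 4 lay between 1.28 and 1.53 CPM, and 4 of 5 exceeded the heterozygous median, but heterozygous 1 was the highest library of all. Means were 0.861 ± 0.521 and 1.23 ± 0.390 CPM (SD, n = 5 each), and the log2 fold change of 0.52 ± 0.46 (SE) had an edgeR adjusted p of 0.588. With the deposited grouping it was 0.50 ± 0.46 (edgeR adjusted p = 0.591), and without heterozygous 1 it was 0.89. Within levels 1 to 3 the mean log2(CPM + 0.1) of deficient minus heterozygous libraries was -0.74, 1.02 and 1.01, so level 1 went the other way.

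Rarb, an RAR whose own promoter carries the repeat printed above, was close to the limit of detection. It had 27, 16, 5, 4 and 5 counts in heterozygous libraries 1 to 5 and 6, 2, 4, 27 and 6 counts in the deficient ones. Heterozygous 1 and deficient 4 shared the highest count, and 7 libraries had 6 counts or fewer. Fitted without the filter, its log2 fold change was -0.38 (edgeR adjusted p = 0.827). Of its merged exon length, 34.1% (1793 bases) overlaps exons of Top2b on the opposite strand. Top2b (a DNA topoisomerase) stood at a median of 157 CPM, and whether counting used the strand is not given in the sources used here. The few Rarb counts are therefore uncertain in origin.

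Rxra encodes an RXR, and of the 7 tested members it was the one with all 5 deficient libraries above the heterozygous median. The share of all tested genes with that pattern was not computed, so the count cannot be set against a background. Heterozygous libraries 1 to 5 had 4.93, 7.16, 6.61, 9.74 and 8.93 CPM, and deficient libraries 1 to 5 had 8.55, 7.91, 13.6, 8.98 and 9.89 CPM. The ranges overlapped through heterozygous 5 and the library labelled heterozygous 4, both of level 3, and deficient 3 was the highest. Means were 7.48 ± 1.91 and 9.79 ± 2.27 CPM (SD, n = 5 each). The log2 fold change of 0.39 ± 0.25 (SE) had an edgeR adjusted p of 0.446. With the deposited grouping in the edgeR model it was 0.54 ± 0.22 (adjusted p = 0.214). Rxra was then the 1 tested member of 7 with an unadjusted p under 0.05, against 18.8% of all tested genes, while 0.540% of all genes and 0 members were called in that fit. The authors' deposited table gives 0.52 for Rxra, with p = 0.0216 and an adjusted p of 0.148.

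Within each of the 3 levels every deficient library had more Rxra than every heterozygous library, which held for 1 of 7 tested members and for 6.90% of all tested genes. The reverse held for 0 members and 5.81% of all genes. The differences in mean log2(CPM + 0.1) were 0.73, 0.68 and 0.08 in levels 1 to 3. By litter date they were 0.52, 0.37 and 0.08, but within at least 1 date the genotypes overlapped. For 0 of 7 tested members did every date put the deficient libraries all above (7.67% of all genes) or all below (6.81%). Deficient 3, the highest library for Rxra, was also the highest for the summed pregranulosa markers (131 CPM). Next for both came deficient 5 (Rxra 9.89, markers 102 CPM) and the library labelled heterozygous 4 (9.74 and 99.2 CPM). Heterozygous 5 followed for the markers (96.9 CPM) and had 8.93 CPM of Rxra. That was just below deficient 4, at 8.98 CPM with markers at 53.3 CPM. The part of such cells in the Rxra result was not tested. Without deficient 3 the log2 fold change was 0.24, and 0.50 when the library labelled heterozygous 4 was left out.

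Rxrb encodes the RXR that dominated these cells and varied least among the tested members. Heterozygous libraries 1 to 5 held 100.1, 136, 99.0, 76.8 and 79.6 CPM, and deficient libraries held 91.5, 84.0, 117, 82.0 and 92.6 CPM. Heterozygous 2 was the highest library and the library labelled heterozygous 4 the lowest, so every deficient value fell inside the heterozygous range. The SD of log2 CPM over 10 libraries was 0.26, and 7.97% of all tested genes had a lower one. Means were 98.3 ± 23.6 and 93.3 ± 13.8 CPM (SD, n = 5 each). Its log2 fold change of -0.08 ± 0.19 (SE) had an edgeR adjusted p of 0.874. The ratio of Rxrb to Rxra TPM was 10.5 to 27.1 in heterozygous and 11.4 to 14.3 in deficient libraries, and the 3 highest ratios were those of heterozygous 1, 2 and 3. In levels 1 to 3 the difference of Rxrb in mean log2(CPM + 0.1) was -0.19, -0.25 and 0.24.

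Crabp1 encodes a cytoplasmic retinoic acid carrier. Heterozygous libraries 1 to 5 had 33.8, 11.8, 12.5, 8.23 and 9.57 CPM and deficient libraries 1 to 5 had 21.4, 17.4, 13.3, 20.1 and 7.65 CPM. Heterozygous 1 stood above the rest, and 4 of 5 deficient libraries exceeded the heterozygous median. Means were 15.2 ± 10.5 and 16.0 ± 5.59 CPM (SD, n = 5 each), with a log2 fold change of 0.07 ± 0.39 (SE) and an edgeR adjusted p of 0.947. Without heterozygous 1 the log2 fold change was 0.60, the largest when a single library was left out, and with the deposited grouping it was -0.11 ± 0.24 (edgeR adjusted p = 0.830). The differences in mean log2(CPM + 0.1) were -0.81, 0.43 and -0.21 in levels 1 to 3.

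Crabp2 encodes a carrier known to deliver retinoic acid to RARs in the nucleus, and it varied most among the tested members. Heterozygous libraries 1 to 5 had 5.70, 1.26, 1.34, 7.28 and 13.1 CPM, and the deficient ones had 5.71, 4.91, 3.35, 9.66 and 3.74 CPM. The heterozygous libraries spanned both extremes, with 2 libraries below every deficient value and heterozygous 5 above all of them. The SD of log2 CPM was 1.08 over 10 libraries, 1.47 in heterozygous and 0.59 in deficient libraries, and 92.8% of all tested genes had a lower SD over the 10. Means were 5.75 ± 4.92 and 5.47 ± 2.52 CPM (SD, n = 5 each), and the log2 fold change of -0.07 ± 0.57 (SE) had an edgeR adjusted p of 0.966. With the deposited grouping its sign changed, to 0.58 ± 0.58 (edgeR adjusted p = 0.623). In levels 1 to 3 the difference in mean log2(CPM + 0.1), deficient minus heterozygous, was -0.10, 2.05 and -1.37.

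Beside the genotypes, the level of the grouping separated some members. Rara was at 3.08 to 3.71 CPM in the 3 libraries of level 3 and at 3.80 to 11.0 CPM in the other 7. For Crabp1 the corresponding ranges were 7.65 to 9.57 and 11.8 to 33.8 CPM. These 2 of 7 tested members lay wholly below the other libraries in level 3, as did 11.7% of all tested genes, and 0 of 7 lay wholly above, as did 8.69%. Stra8, the meiotic entry gene, was likewise at 10.3 to 156 CPM in level 3 against 221 to 965 CPM elsewhere, while Rec8, a meiotic cohesin, overlapped at 2.34 to 11.0 against 10.4 to 53.1 CPM. Between genotypes Stra8 had a log2 fold change of 0.76 ± 0.82 (SE, edgeR adjusted p = 0.659) and Rec8 one of 0.97 ± 0.64 (SE, edgeR adjusted p = 0.455). Erythroid transcripts moved with level 3, as given above, and their part in the lower Rara and Crabp1 was not tested.

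**Figure D3:**
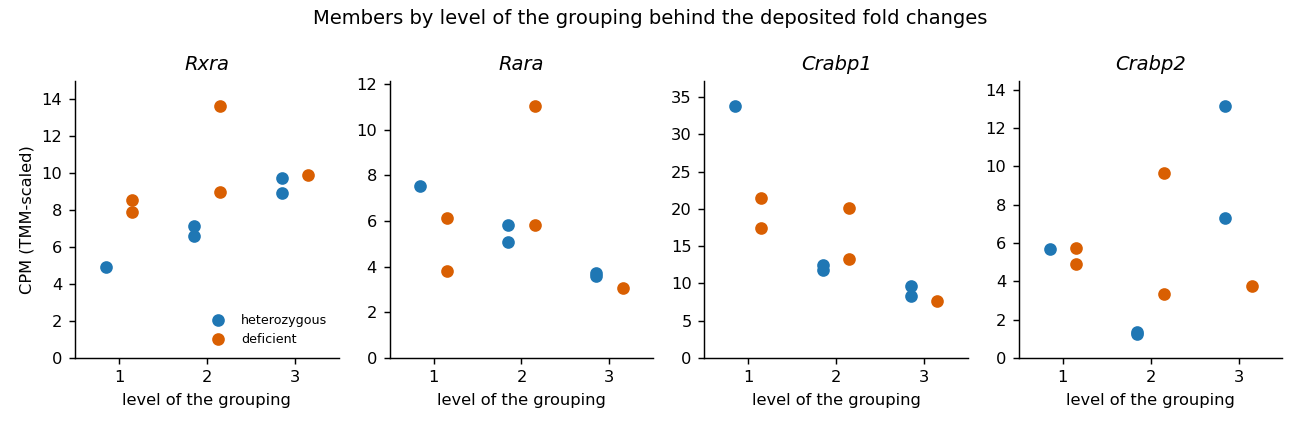
TMM-scaled CPM of Rxra, Rara, Crabp1 and Crabp2 by level of the grouping behind the deposited fold changes, with 1 point per library, heterozygous in blue and deficient in orange. Within each level the deficient points of Rxra lie above the heterozygous ones, and in level 3 Rara stays at 3.08 to 3.71 CPM and Crabp1 at 7.65 to 9.57 CPM.

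The degrading enzymes were at the low end of detection. Cyp26b1 had 8, 8, 9, 11 and 13 counts in heterozygous libraries 1 to 5 and 16, 11, 8, 30 and 15 counts in deficient libraries 1 to 5. In CPM the heterozygous libraries lay between 0.372 and 0.595, and 4 of 5 deficient libraries lay above that range, between 0.660 and 1.35, with deficient 3 inside it. Means were 0.452 ± 0.10 and 0.761 ± 0.361 CPM (SD, n = 5 each), a log2 fold change of 0.75 ± 0.41 (SE, edgeR adjusted p = 0.369). It was the largest fold change among the tested members, and with the deposited grouping it was 0.82 ± 0.46 (edgeR adjusted p = 0.354). Deficient minus heterozygous mean log2(CPM + 0.1) was 0.74, 0.79 and 0.21 in levels 1 to 3.

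Cyp26a1, the enzyme whose promoter carries the other repeat, had 8, 0, 26, 7 and 4 counts in heterozygous libraries 1 to 5 and 5, 5, 4, 12 and 3 counts in the deficient ones. Heterozygous 3 had the most, and heterozygous 2 had none, which allows up to 0.139 CPM (3 counts). Such floors cover counting error only. The heterozygous range enclosed the deficient one, and without the filter the log2 fold change was -0.56 (edgeR adjusted p = 0.737).

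The order of Crabp1 and Crabp2 depends on the length used to scale them. For each member the deposited TPM were in a fixed proportion to the deposited counts in every library once the library's own scale was removed, so a length can be read back from them. That length was 7255 bases for Crabp1, against 802 bases of merged exons in GENCODE vM21, a ratio of 9.05, and 94.7% of 13389 genes compared had a lower ratio. For Crabp2 the ratio was 0.743, and for the other 7 members it was 0.987 to 1.04. When CPM were divided by kilobases of annotated exon, Crabp1 rose to second place, with a median of 16.1 (9.54 to 42.1) CPM per kb, behind Rxrb at 23.2 and ahead of Crabp2 at 4.01 (0.949 to 9.94). On that scale Crabp1 exceeded Crabp2 in 10 of 10 libraries, by a median of 6.00 times (1.20 to 15.5), whereas by TPM Crabp2 exceeded Crabp1 in 8 of 10. Rxrb was above Crabp1 per kb in 6 of 10 libraries. Why the TPM of Crabp1 rest on that length is not given in the sources used here. The fits on counts divide by no length. Whether the Crabp1 reads were counted over that length or over the annotated exons is not given either. Its counts may thus hold reads from outside those exons, and its place per kb is uncertain.

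**Figure D4:**
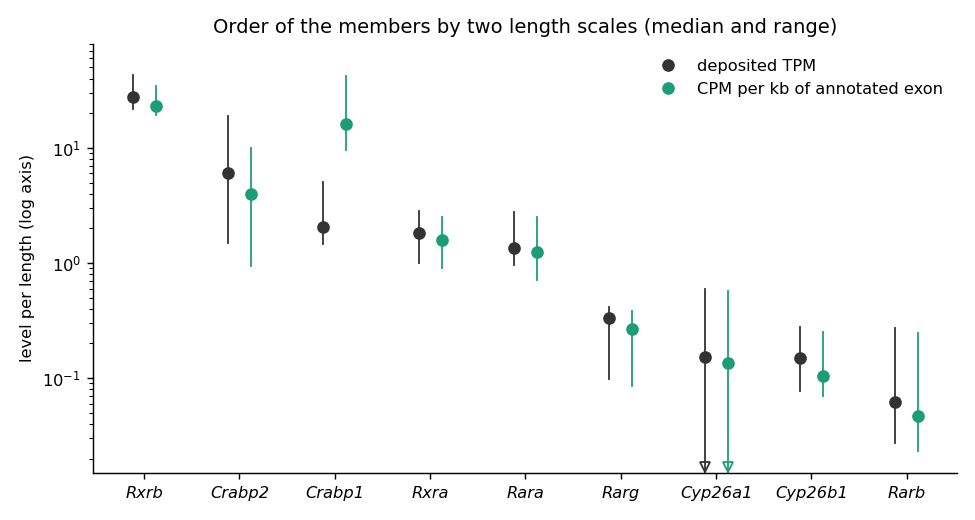
Median (point) and range (line) over 10 libraries of each member on a log axis, by deposited TPM (dark) and by CPM per kb of annotated exon (green), in the order of the TPM. Crabp1 is the member with a large shift between the scales, from a median of 2.06 TPM to 16.1 CPM per kb, and triangles mark the lowest library of Cyp26a1, at 0.

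The other genes of the pathway were read from lists by role, 56 genes besides the members, of which 46 were tested and 0 called by edgeR. At an unadjusted p under 0.05, 6 were higher and 2 lower in deficient libraries, where 7.45% of all tested genes were higher and 9.13% lower at that p, 16.6% together. The total of 8 of 46 is near that background, and the median log2 fold change was 0.08. The counts of each list below are to be read against these shares. Of these, 44 have an adjusted p in the authors' deposited table and 3 were called there, against the same 6.55%, all higher in deficient libraries. They were the coactivators Ep300 (0.82, adjusted p = 0.000426) and Carm1 (0.58, adjusted p = 0.0371) and the corepressor Ncor1 (0.52, adjusted p = 0.0401), and Carm1 was named after its values were seen.

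Coactivators, which receptors recruit with ligand, had 8 of 9 log2 fold changes above 0, against 48.9% of all tested genes, and a median of 0.48 (0.39 with the deposited grouping). At an unadjusted p under 0.05, 3 of them were higher and 0 lower. Ep300, a histone acetyltransferase, stood at 73.1, 78.3, 53.6, 55.3 and 56.0 CPM in heterozygous libraries and at 121, 127, 141, 122 and 87.9 CPM in deficient libraries. The genotypes did not overlap, as for 3.53% of all tested genes, and the log2 fold change of 0.92 ± 0.19 (SE) had an edgeR adjusted p of 0.113, the smallest of these lists. Med1, a Mediator subunit with the highest level of the list, had 0.11 ± 0.20 (SE). All 8 corepressors were tested, with 2 higher and 0 lower at an unadjusted p under 0.05 and a median of -0.10. Ncor1, a scaffold for histone deacetylase, ran from 63.1 to 107 CPM in heterozygous and from 110.3 to 157 CPM in deficient libraries. Its log2 fold change was 0.64 ± 0.20 (SE, edgeR adjusted p = 0.166). Ep300 and Ncor1 were each named for the smallest p of their list, a choice that favours separate ranges.

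On the supply side, 10 of 13 genes of retinoic acid synthesis were tested, with 0 higher and 2 lower at an unadjusted p under 0.05. Their median was -0.32, and -0.10 with the deposited grouping. Aldh1a3, a retinaldehyde dehydrogenase, ran from 1.08 to 6.76 CPM in heterozygous libraries, highest in the library labelled heterozygous 4, and from 0.981 to 1.72 CPM in deficient libraries (log2 fold change -1.15 ± 0.43 SE, edgeR adjusted p = 0.217). The other of the 2 lower genes was Dhrs3, with -0.62 ± 0.27 (SE, edgeR adjusted p = 0.270). Dhrs3 returns retinaldehyde to retinol, against the direction of synthesis, and is itself induced by retinoic acid. Rdh14, a retinol dehydrogenase and the most abundant of the list, had -0.10 ± 0.17. For uptake, transport and storage 6 of 9 genes were tested, with 0 below an unadjusted p of 0.05 and a median of 0.14. Lrat, which esterifies retinol for storage, had a log2 fold change of 0.53 ± 0.30, and Dgat1, an acyltransferase, had 0.15 ± 0.33. Cyp2s1, the 1 tested gene of 2 other oxidising enzymes, had -0.25 ± 0.34.

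Other receptors and carriers were all tested, 6 of 6, with 1 higher at an unadjusted p under 0.05 and a median of 0.01. Ppard, a nuclear receptor that also pairs with RXR, had 1.01 to 1.82 CPM in heterozygous and 1.63 to 2.46 CPM in deficient libraries, and its log2 fold change was 0.69 ± 0.29 (SE, edgeR adjusted p = 0.266). Fabp5, a fatty acid binding protein that also carries retinoic acid, had 0.06 ± 0.52. Of 15 target genes, which include Crabp2 and the untested Rarb and Cyp26a1, 10 were tested, with 0 higher and 1 lower at an unadjusted p under 0.05 and a median of 0.13. The 1 lower gene was Dhrs3, already counted among the synthesis genes.

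Among the markers of germ cells and of other cell types, 0 were called between genotypes by edgeR. Of 10 pregranulosa markers 7 had positive and 3 negative log2 fold changes, and 2 were higher at an unadjusted p under 0.05, among them Fst (1.23 ± 0.46 SE, edgeR adjusted p = 0.215). All 8 macrophage markers had negative log2 fold changes, with a median of -0.30, and the authors' deposited table calls 3 of them, including Csf1r (-0.86, adjusted p = 0.0194). That table also calls 2 pregranulosa markers, higher in deficient libraries, among them Fst (1.33, adjusted p = 0.0401). Col1a2 of the stroma and surface list is called as well (1.16, adjusted p = 0.00282), and so is 1 endothelial marker. The share called among all its genes with an adjusted p is 6.55%. Of 7 tested germ cell markers 6 had negative log2 fold changes, with a median of -0.23, and Ddx4 is called in the authors' deposited table (-0.48, adjusted p = 0.0262). The part of these cells in the members' values was not tested.

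**Figure D5:**
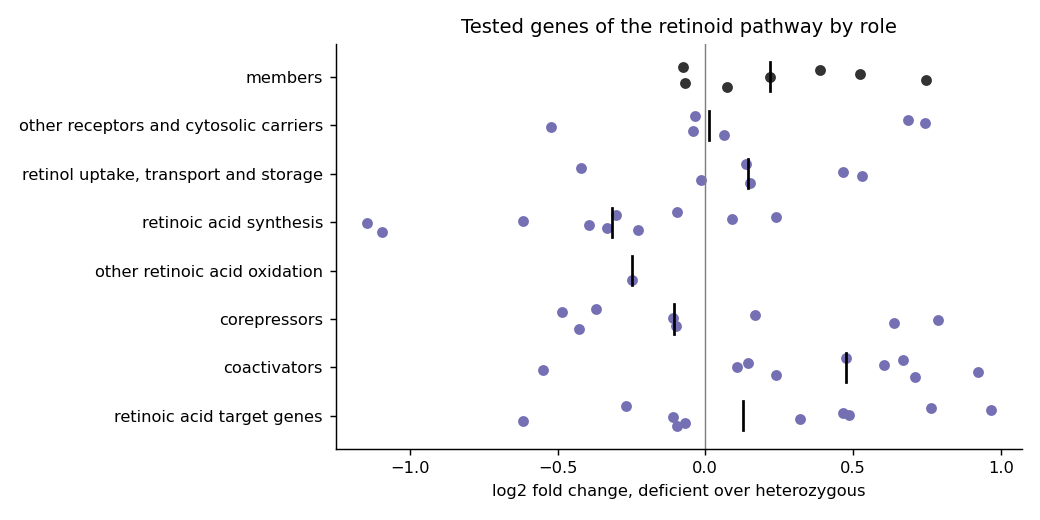
Log2 fold change, deficient over heterozygous, of each tested gene by role in the retinoid pathway, from the edgeR fit on genotype alone, with a black bar at the median of the list. The 9 coactivators have a median of 0.48 and the 10 synthesis genes one of -0.32, which become 0.39 and -0.10 with the deposited grouping, and some genes stand in more than 1 list.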

How the data were processed

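RNA-seq of 10 libraries was used. The authors deposited whole-number counts per gene and TPM per gene, and per the submitters' processing notes Trim Galore 0.5.0, HISAT2 2.1.0, SAMtools 1.9, StringTie 1.3.3b, featureCounts of Subread 1.6.2, DESeq2 and GRCm38 were used. The authors also deposited a comparison table with a normalized mean count (a signal), a log2 fold change, a test score, and p-values before and after adjustment, per the file headers. The sign of Taf4b was used to read its direction, deficient over heterozygous. How counting treated strand is not given in the sources used here. Columns were matched to samples by genotype and replicate number.

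The test on counts was run in R 4.3.3 with edgeR 4.0.16 (TMM scaling, edgeR's expression filter, quasi-likelihood test on genotype alone), with Benjamini-Hochberg adjustment and calls under 0.05. SE is the absolute log2 fold change over the square root of F. The 3-level grouping came from the weight each library has in the deposited log2 fold changes, by least squares. DESeq2 1.42.0 with it as a covariate came within 0.00555 of all 31181 of them and gave 1172 calls, as deposited, and 6 of 10 libraries have a level equal to their litter date's number. Alternatives were other scalings and filters, DESeq2, limma 3.58.1 (voom, or log2(TPM + 1) and log2(TPM + 0.1)), litter date, replicate number or the grouping in the model, and libraries, dates or levels left out.

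Replicate numbers were not taken as pairs, because libraries of the same number share a litter date for 3 of the 5 numbers only and the deviations of same-numbered libraries did not all move together. The members, lists and tests were chosen with earlier results of these data known. The rule for names took all members, Taf4b, Stra8, Rec8 and Hba-a1, and from each list up to 3 called genes or, with none called, the gene with the smallest p and the gene with the highest mean.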

Additional observations from a re-analysis of the deposited data

Results flagged for a closer look

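Of 18 sets of 5 libraries, 1 for each member and genotype, 3 held a library farther from the others than Dixon's critical value of 0.71 for the gap to the nearest library over the whole range. That test alone picks out a small share of sets by chance, so some such libraries are due among 18. Rarb stood at 1.22 CPM (27 counts) in deficient 4, where the other deficient libraries had 0.123 to 0.279 CPM, a gap of 0.858 of the range. Rarg stood at 0.552 CPM (9 counts) in deficient 2, below the other deficient libraries at 1.28 to 1.53 CPM, a gap of 0.737 of the range. Crabp1 stood at 33.8 CPM (705 counts) in heterozygous 1, above the other heterozygous libraries at 8.23 to 12.5 CPM, a gap of 0.833 of the range.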

How the results depend on the processing

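No member was called under any of the 28 alternatives. Rxra and Rarg kept a positive log2 fold change in all 28 (0.16 to 0.65 and 0.10 to 1.08), and Cyp26b1 in the 27 that gave it a value (0.07 to 1.04), since it did not pass a filter of 1 CPM in 5 libraries. The smallest adjusted p of a member was 0.214, for Rxra with the grouping. The other 4 tested members changed sign in 28 of the values in all, and the cause was not tested. Rara became -0.18 without litter date 2 and -0.19 without level 2. Rxrb became 0.019 with litter date in the model, 0.15 without litter date 1 and 0.064 without level 2. Crabp1 became -0.11 with the grouping, -0.16 without litter date 2, -0.15 without level 2 and -0.095 without level 3. Crabp2 became 0.45 by limma voom, 0.13 on log2(TPM + 1) with or without a filter, 0.25 on log2(TPM + 0.1), 0.58 with the grouping, 0.24 without litter date 3 and 1.11 without level 3. With 1 library left out at a time the values ran from -0.12 to 0.40 for Rara, -0.17 to 0.065 for Rxrb, -0.078 to 0.60 for Crabp1, -0.37 to 0.48 for Crabp2, 0.33 to 0.89 for Rarg, 0.24 to 0.50 for Rxra and 0.43 to 0.92 for Cyp26b1.

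The count of genes called over the whole table was 0 by edgeR, with 3190 at an unadjusted p under 0.05. It became 251 without a low-count filter, 706 by DESeq2, 510 by limma voom and 104 with the grouping. Leaving out 1 library gave 0 to 606, with 606 without heterozygous 1. Pathway genes called became 1 by DESeq2 (Ep300), 2 by voom (Ncor1 and Ep300) and 1 with the grouping (Ep300), and 0 to 1 with 1 library left out (Ep300 without heterozygous 1).

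With replicate number as a block 1 gene was called, Crabp2 became 0.37 and Rxra was 0.40. The deviations of same-numbered libraries correlated at 0.17, 0.03, 0.12, -0.26 and 0.59 across genes for numbers 1 to 5, and 1 of 5 heterozygous libraries, number 5, matched its own number best, so the numbers were not read as pairs.

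Depth limits Rarb, Cyp26a1, Cyp26b1 and Rarg most, with 0 to 34 counts per library.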

Other observations

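Over the 10 libraries the log2 CPM of Rxrb was most like that of Chpf (Pearson r = 0.958) and Chaf1a (r = 0.949), among 13666 named genes whose mean log2 CPM reached 1. Crabp1 was most like Zfp563 (r = 0.979) and Acot8 (r = 0.948), and Rxra most like Dapk1 and Smad3 (r = 0.921 each). These are descriptions with no test, over 10 libraries that differ in genotype, litter date and depth.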
